A study of Mus musculus with 9 samples.

Results

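The fatty acid storage and handling genes are 10 genes through which a cell takes up fatty acids, carries and activates them, stores them as triglyceride, releases them again and burns them. They were chosen by name for these roles, Lpl, Fabp4, Fabp5, Acsl1, Dgat1, Dgat2, Plin2, Pnpla2, Cpt1a and Pparg, and matched by Ensembl identifier to the deposited table. They are 10 of the 54059 genes in that table, and all 10 were among the 11450 genes with a mean level high enough to be tested.

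A macrophage draws fatty acids from lipoproteins, from dead cells and from the blood. An excess is joined to glycerol and kept as triglyceride in lipid droplets, from which lipases free it for oxidation in mitochondria or for the making of lipid mediators. The nuclear receptor PPAR gamma, encoded by Pparg, binds fatty acids and their derivatives and controls many genes of this pathway, among them Fabp4, Lpl and Plin2.

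RNA was sequenced from peritoneal macrophages of C57BL/6 mice in 3 groups of 3 libraries. WT stands for cells of wild-type mice, and KO for cells of SHP2lyz2-/- mice, called M-Shp2-/- in the study, in which Cre expressed from the Lyz2 gene deletes the floxed Shp2 gene (Shp2 fl/fl) in myeloid cells. SHP099 stands for wild-type cells pretreated with SHP099, an allosteric inhibitor of the phosphatase SHP2. The mice were 8 weeks old by the labels and 8 to 10 weeks old by the study's methods. Each mouse received 1 ml of starch broth into the peritoneum 3 days before its cells were collected, and the cells that adhered were kept as macrophages. By the study's methods the WT and KO cells were exposed to imiquimod (IMQ), a ligand of TLR7, for 4 h before sequencing, with no dose stated. A figure legend of the study, on wild-type cells with and without SHP099, gives imiquimod at 10 µg/ml for 4 h, and SHP099 at 10 µM for 2 h before it. The labels do not mention imiquimod. The deletion depends on Cre activity in each cell, so cells without Lyz2 expression keep the gene.

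Levels are given as FPKM, fragments per kilobase of transcript scaled to the mapped fragments of the library, as deposited. The libraries held between 39841813 reads (SHP099 replicate 2) and 50979545 reads (WT replicate 2), as recovered from the FPKM values. Among the 10 genes the recovered reads per library ranged from 74 to 323 for Dgat2, the lowest, and from 53230 to 93734 for Fabp5, the highest.

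KO replicate 3 stood apart from the other KO libraries. Its correlation across genes was 0.967 with KO replicate 1 and 0.954 with KO replicate 2, whereas KO replicates 1 and 2 correlated at 0.992. Correlations lay between 0.974 and 0.984 among the WT libraries and between 0.988 and 0.991 among the SHP099 libraries, and genes are not independent replicates in any of these values. Results that rest on KO replicate 3 are given with and without it.

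Ptpn11, the gene that encodes SHP2, served as the check of the labels. Its FPKM was 45.8, 44.0 and 40.0 in the WT libraries, 18.6, 17.8 and 18.9 in the KO libraries, and 43.0, 42.1 and 39.6 in the SHP099 libraries. All 3 KO libraries lay far below the other 6, and the SHP099 libraries overlapped the WT libraries. In limma the gene fell by 1.19 on the log2 scale in KO against WT (SE 0.0956, adjusted p = 0.0168). The adjusted p was 0.196 without KO replicate 1, 0.151 without KO replicate 2, 0.105 without WT replicate 1 and 0.125 without WT replicate 2, while the log2 fold change stayed between -1.24 and -1.15 in the 6 fits that left out 1 library.

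The macrophage markers were abundant in every library. The summed FPKM of 8 markers was 10420.2, 13421 and 11189 in WT, 7595 (replicate 1), 7468 (replicate 2) and 8412 (replicate 3) in KO, and 11778, 13005 and 13736 in SHP099. Every KO sum lay below every WT and every SHP099 sum, and these sums are mostly Lyz2, the gene that also carries Cre in KO. Lyz2 had 7440 to 10228 FPKM in WT, 4743 to 5407 in KO and 9348 to 10715 in SHP099. Without Lyz2 the sums of the other 7 markers overlapped, with 2980, 3194 and 3238 in WT, 2732, 2726 and 3005 in KO, and 2430, 2725 and 3021 in SHP099. Cd68 was highest in KO replicates 1 and 2 (1603 and 1740 FPKM), while other markers went the other way. Those libraries were the lowest of the 9 for Cd14 (705 and 589 FPKM), Itgam (52.1 and 45.8) and Fcgr1 (0.987 and 0.701). Mertk was lower in every KO library (3.28 to 4.35 FPKM) than in any WT library (6.10 to 13.3). The part of the Lyz2 level in the values of the 10 genes was not tested. Csf1r, which encodes the receptor for macrophage colony-stimulating factor, was the 1 marker of the 8 to pass the test, and it rose in SHP099 against WT (log2 fold change 1.38, adjusted p = 0.0222, higher in 3 of 3 libraries). In KO replicate 3 Csf1r had 176 FPKM, above every WT library (58.2 to 111).

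Adipocytes carry the same storage genes as macrophages, so their own markers were examined. None of the 8 adipocyte markers reached the level needed for testing, and Adipoq, Adrb3, Car3, Cidec and Lep were at 0 in every library. Retn was the most abundant, with at most 0.117 FPKM.

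Markers of fibroblasts and mesothelial cells differed strongly between libraries of the same group. The summed FPKM of 9 markers was 66.3, 309.9 and 41.3 in WT, 138.8, 52.8 and 594 in KO, and 367, 142 and 103 in SHP099. WT replicate 2, KO replicate 3 and SHP099 replicate 1 held the most in their groups. Col1a1 was the most abundant, from 10.02 to 206 FPKM, and none of the 6 markers tested passed in any comparison.

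Markers of other cells were also examined. Of the 6 endothelial markers Vwf was the most abundant (24.0 to 50.3 FPKM), while Emcn was at 0 in every library and the means over the 9 libraries were 0.0128 FPKM for Tie1, 0.238 for Pecam1, 0.682 for Cdh5 and 2.57 for Kdr. Of the 6 neutrophil markers S100a8 was the most abundant (34.5 to 95.4 FPKM), with means of 4.28 for Camp, 0.366 for S100a9, 0.141 for Ltf, 0.00784 for Ly6g and 0.00570 for Mpo. Both lists thus stood on 1 abundant gene, with most of their other markers near 0. Cd3g for T and NK cells reached 2.42 FPKM, and Icam2 for resident peritoneal macrophages 4.37. Ccr7, the most abundant dendritic cell marker, reached 5.80 FPKM. In SHP099 against WT, Ccr7 fell by 1.52 (adjusted p = 0.0192) and the endothelial marker Kdr by 1.08 (adjusted p = 0.0406) on the log2 scale, each lower in 3 of 3 libraries. The summed FPKM of 5 dendritic cell markers was 6.14, 3.95 and 3.78 in WT, 7.40, 5.25 and 3.56 in KO, and 1.498, 1.03 and 1.35 in SHP099. The summed FPKM of 6 mast cell and eosinophil markers was 5.09, 2.05 and 2.80 in WT, 2.51, 3.63 and 0.626 in KO, and 0.417, 0.299 and 0.475 in SHP099, with Kit as the most abundant (0.176 to 4.51 FPKM). In both lists every SHP099 sum lay below all WT and KO sums, and their part in the values of the 10 genes was not tested. In bulk RNA, fewer cells of a type and less RNA per cell cannot be told apart.

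The 10 genes differed widely in level. In WT the order by mean deposited FPKM was Fabp5, Plin2, Acsl1, Lpl, Fabp4, Pnpla2, Dgat1, Pparg, Cpt1a and Dgat2. Fabp5 had a mean of 744 FPKM ± 88.5 (SD, n = 3) and ranked 108 among the 11450 genes tested, and Dgat2 had a mean of 5.39 FPKM ± 1.39 (SD, n = 3) and ranked 7916. The WT libraries of neighbours overlapped between Plin2 and Acsl1, Acsl1 and Lpl, Fabp4 and Pnpla2, Pparg and Cpt1a, and Cpt1a and Dgat2, so their order within these pairs was within the spread. The order depends on the length used for each gene, and with the length of the principal coding transcript, chosen after the data had been seen, Fabp4 stood above Lpl in WT (means of 93.6 and 65.9) and Dgat2 above Cpt1a (means of 2.16 and 2.11).

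The order was not the same in each group. In SHP099 the deposited means placed Acsl1 (502 FPKM ± 86.3, SD, n = 3) directly below Fabp5 (619 FPKM ± 62.7, SD, n = 3), with overlapping libraries, and Lpl (32.2 FPKM ± 7.63, SD, n = 3) below Pnpla2 and Fabp4. In KO the order followed that of WT down to Dgat1, with Cpt1a next, and the libraries of Acsl1, Lpl, Fabp4 and Pnpla2 overlapped from each neighbour to the next.

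**Figure D1:**
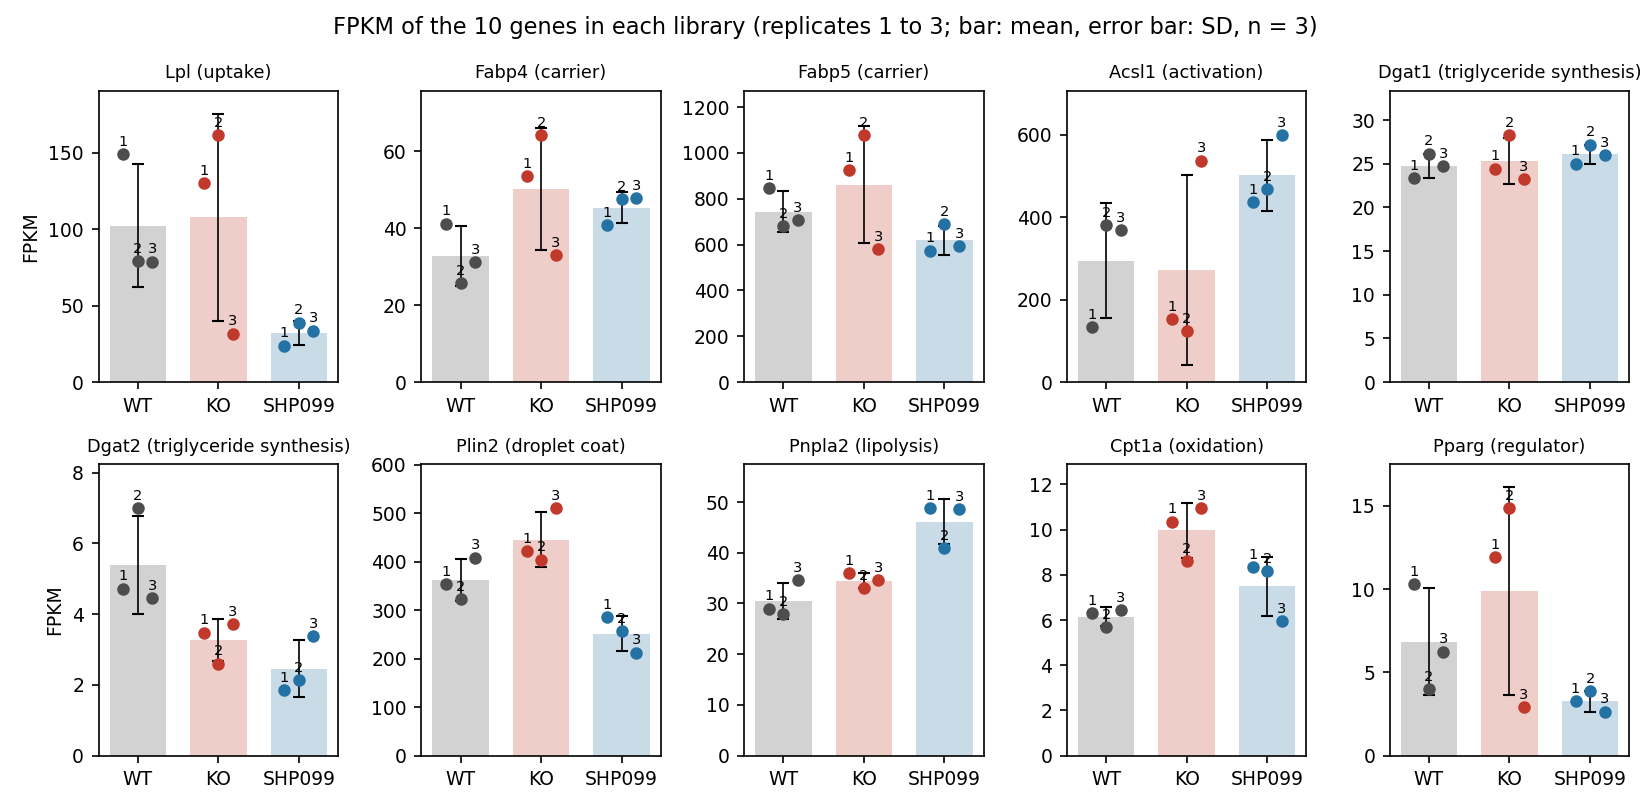
FPKM of each of the 10 genes (vertical axes) in the WT, KO and SHP099 groups (horizontal axes), with 1 numbered point per library, bars for means and error bars for the SD (n = 3). Lpl in SHP099 lies between 23.9 and 38.9 FPKM, below all 3 WT libraries, and KO replicate 3 lies apart from the other KO libraries for Lpl, Fabp4, Fabp5, Acsl1 and Pparg.

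Lpl encodes lipoprotein lipase, a secreted enzyme that frees fatty acids from circulating triglyceride and so opens their uptake (ENSMUSG00000015568, chr8:68880491-68907448, GRCm38). Its FPKM was 149, 79.2 and 78.8 in WT, 130.1, 162 and 31.7 in KO, and 23.9, 38.9 and 33.7 in SHP099. All SHP099 libraries lay below all WT libraries. KO replicates 1 and 2 were among the highest of the 9, and KO replicate 3 fell within the range of SHP099.

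Fabp4 and Fabp5 encode cytosolic fatty acid binding proteins, which carry fatty acids between membranes, droplets and the nucleus. Fabp4 (ENSMUSG00000062515, chr3:10204088-10208576) had 41.2, 25.7 and 31.2 FPKM in WT, 53.5, 64.2 and 32.9 in KO, and 40.8, 47.6 and 47.7 in SHP099. KO replicates 1 and 2 were above every other library, and both KO and SHP099 overlapped WT. Fabp5 (ENSMUSG00000027533, chr3:10012548-10016607) had 845, 680.0 and 707 FPKM in WT, 925, 1078 and 579 in KO, and 574, 691 and 592 in SHP099. By deposited FPKM it was the most abundant of the 10 genes in every library other than SHP099 replicate 3, where Acsl1 stood slightly higher, while with the principal transcript length it stood above Acsl1 in all SHP099 libraries. Its groups overlapped. Of the 3611 stretches of 50 bases in its transcripts, 198 also occur in other genes, 184 of them in Gm6166, which was listed at 57.2 to 104.5 FPKM, so reads of these stretches have no single origin.

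Acsl1 encodes an acyl-CoA synthetase of the endoplasmic reticulum and mitochondria, which activates long-chain fatty acids before any further use (ENSMUSG00000018796, chr8:46471037-46536051). Its FPKM was 134, 381 and 369 in WT, 153, 124 and 538 in KO, and 437, 469 and 599.8 in SHP099. Every SHP099 library was above every WT library, while WT replicate 1 and KO replicates 1 and 2 formed a low group and KO replicate 3 lay with SHP099. The transcripts of Gm45244, on the opposite strand, overlap exons of Acsl1, and Gm45244 was listed at no more than 2.37 FPKM.

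Dgat1 and Dgat2 encode the enzymes of the last step of triglyceride synthesis, which adds the final fatty acid to diacylglycerol. Dgat1 (ENSMUSG00000022555, chr15:76502015-76511953) had 23.4, 26.1 and 24.8 FPKM in WT, 24.4, 28.3 and 23.3 in KO, and 25.03, 27.2 and 26.0 in SHP099. It was the steadiest of the 10 genes, with a highest library 1.22 times its lowest. Dgat2 (ENSMUSG00000030747, chr7:99153658-99182719) had 4.72, 6.99 and 4.46 FPKM in WT, 3.47, 2.60 and 3.72 in KO, and 1.86, 2.13 and 3.37 in SHP099. All WT libraries were above all KO and all SHP099 libraries, and KO and SHP099 overlapped each other.

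Plin2 encodes perilipin 2, the main coat protein of lipid droplets in macrophages (ENSMUSG00000028494, chr4:86648386-86670060). Its FPKM was 354, 323 and 408 in WT, 422, 404 and 509.7 in KO, and 285, 257 and 213 in SHP099. The SHP099 libraries were the lowest of the 9, below every WT and every KO library, and KO overlapped WT at its upper end. In this gene KO replicate 3 was the highest library and did not resemble SHP099.

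Pnpla2 encodes adipose triglyceride lipase, which starts the breakdown of droplet triglyceride (ENSMUSG00000025509, chr7:141455198-141460743). Its FPKM was 29.0, 27.9 and 34.6 in WT, 35.9, 33.0 and 34.6 in KO, and 48.7, 41.0 and 48.6 in SHP099. The SHP099 libraries were the highest of the 9, above every WT and every KO library, and KO overlapped WT.

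Plin2 and Pnpla2 were thus the 2 of the 10 genes whose SHP099 libraries overlapped neither WT nor KO, and the 250 bases before their start sites are shown for this reason, 5′ to 3′ on the strand of the gene, from RefSeq (GRCm38.p6). Among all genes tested, SHP099 did not overlap WT for 34.6% and did not overlap KO for 17.7%. The share of all genes apart from both groups was not counted, so the 2 genes are a choice for display only. Capitals mark matches to 4 motifs searched on both strands, AGGTCA (bound by nuclear receptors), CACGTG (an E-box), GGGCGG (bound by Sp factors) and TATAAA (an element near many start sites). The Plin2 window is chr4:86670060-86670309 on the minus strand, and the Pnpla2 window is chr7:141454938-141455187 on the plus strand.
Plin2: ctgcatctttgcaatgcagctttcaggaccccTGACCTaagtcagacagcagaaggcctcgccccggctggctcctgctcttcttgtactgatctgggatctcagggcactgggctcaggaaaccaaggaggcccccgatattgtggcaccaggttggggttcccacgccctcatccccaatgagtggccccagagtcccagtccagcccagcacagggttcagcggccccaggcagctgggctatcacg
Pnpla2: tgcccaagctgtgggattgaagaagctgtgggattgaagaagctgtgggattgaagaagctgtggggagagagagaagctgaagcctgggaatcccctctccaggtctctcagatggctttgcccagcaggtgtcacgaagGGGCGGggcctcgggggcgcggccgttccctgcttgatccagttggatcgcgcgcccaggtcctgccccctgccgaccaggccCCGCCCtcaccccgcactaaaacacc
The Plin2 window holds AGGTCA on the opposite strand, read as TGACCT, 218 bases before the start. The Pnpla2 window holds GGGCGG 109 bases before the start and its reverse complement CCGCCC 26 bases before it. Among 32817 windows of the same length, 14.0% hold AGGTCA, 6.02% CACGTG, 32.7% GGGCGG and 12.4% TATAAA, so such matches are common, and they describe the letters only. The bases after the Pnpla2 window were not found at the start of a GENCODE transcript, so its start is that of RefSeq alone. The RefSeq table held windows for 5 of the 10 genes, Acsl1, Cpt1a, Plin2, Pnpla2 and Pparg.

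Cpt1a encodes carnitine palmitoyltransferase 1A of the outer mitochondrial membrane, the controlled step by which long-chain fatty acids enter oxidation (ENSMUSG00000024900, chr19:3322334-3385733). Its FPKM was 6.32, 5.68 and 6.45 in WT, 10.3, 8.60 and 10.9 in KO, and 8.33, 8.16 and 5.96 in SHP099. All KO libraries were above all WT and all SHP099 libraries, KO replicate 3 included, and SHP099 overlapped WT.

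Pparg encodes the regulator PPAR gamma (ENSMUSG00000000440, chr6:115360951-115490399). Its FPKM was 10.3, 3.997 and 6.24 in WT, 11.9, 14.8 and 2.89 in KO, and 3.28, 3.89 and 2.64 in SHP099. The SHP099 libraries lay just below the lowest WT library, KO replicates 1 and 2 were the highest of the 9, and KO replicate 3 fell within the range of SHP099. The 4 libraries lowest in Pparg, KO replicate 3 and those of SHP099, were also the 4 lowest in Lpl and the 4 highest in Acsl1. WT replicate 1 and KO replicates 1 and 2 were in turn the 3 highest in Pparg and in Lpl and the 3 lowest in Acsl1. The share of all genes with such an order was not counted, and a link between these genes was not tested. The macrophage marker Csf1r was also highest in the first 4 libraries (176 to 211 FPKM, at most 111 in the others). Over all genes tested, after removal of group means, WT replicate 1 correlated at 0.49 and 0.54 with KO replicates 1 and 2. With KO replicate 3 it correlated at -0.63.

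**Figure D2:**
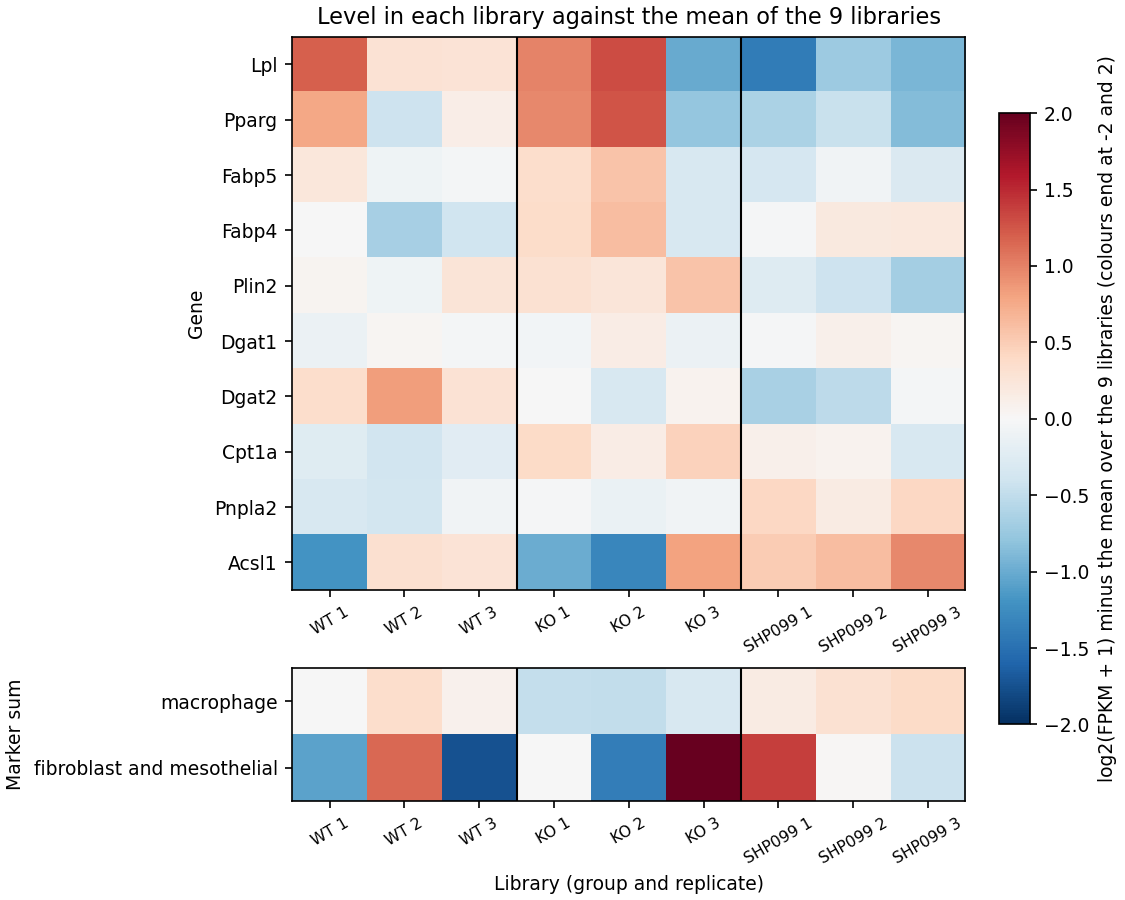
Colour gives log2(FPKM + 1) of each gene (vertical axis) in each library (horizontal axis) minus its mean over the 9 libraries, with the sums of the macrophage markers and of the fibroblast and mesothelial markers in the lower panel. KO replicate 3 is low in Lpl (31.7 FPKM) and Pparg (2.89 FPKM) and high in Acsl1 (538 FPKM), as are the SHP099 libraries, while WT replicate 1 resembles KO replicates 1 and 2, and the fibroblast and mesothelial sum is highest in KO replicate 3 (594).

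KO against WT asks how the loss of SHP2 in myeloid cells bears on these genes. Of the 10 genes, Cpt1a was higher in every KO library and Dgat2 lower in every KO library than in any WT library, and the other 8 overlapped. Cpt1a had a mean of 9.96 FPKM ± 1.21 in KO and 6.15 FPKM ± 0.410 in WT (SD, n = 3). Dgat2 had a mean of 3.27 FPKM ± 0.591 in KO and 5.39 FPKM ± 1.39 in WT (SD, n = 3). By limma, 0 of the 10 genes passed an adjusted p of 0.05, voom on the recovered reads likewise gave 0, and 2 had an unadjusted p under 0.05, beside 10.5% of all genes tested.

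Over all 11450 genes tested, 10 passed in KO against WT, which is 0.0873%, and all of them fell. The cut-offs of the study, an adjusted p of 0.005 and an absolute log2 fold change of 1, were met by 1 gene, which is 0.00873%. Groups that do not overlap were common, with 2187 genes or 19.1% of those tested, so 2 of 10 genes is near the share of all genes. The log2 fold change of Cpt1a was 0.61 (SE 0.134, adjusted p = 0.388), and that of Dgat2 was -0.57 (SE 0.202, adjusted p = 0.465), both by limma. Values on the log2 scale were 0.58 for Fabp4 and 0.30 for Plin2, with an adjusted p of 0.478 for each, and 0.18 for Pnpla2 with an adjusted p of 0.523.

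The genes in which KO replicate 3 stood apart had wide intervals. For Lpl the log2 fold change was -0.15 with a 95% confidence interval from -1.62 to 1.31 (adjusted p = 0.905), and Acsl1 had -0.29 with an interval from -1.82 to 1.24 (adjusted p = 0.828). Pparg had 0.32 with an interval from -1.03 to 1.67 (adjusted p = 0.783), and Fabp5 had 0.17 with an interval from -0.39 to 0.73 (adjusted p = 0.725). Dgat1 had 0.029 with an interval from -0.24 to 0.29 (adjusted p = 0.903). Without KO replicate 3 the log2 fold change was 0.57 for Lpl (adjusted p = 0.308), -0.94 for Acsl1 (adjusted p = 0.289), 0.94 for Pparg (adjusted p = 0.239), 0.43 for Fabp5 (adjusted p = 0.225) and 0.85 for Fabp4 (adjusted p = 0.223), and again none passed. The fibroblast and mesothelial sum was highest in that library, and its part in these values was not tested.

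All genes leaned upward in this comparison, with a median log2 fold change of 0.15 over the genes tested and 77.4% of them above 0. Without WT replicate 3 this median was 0.084. The median was -0.012 after median-of-ratios scaling, a shift of the whole scale against which each of the values above can be read. The median of the 10 genes was 0.17 as deposited and -0.0018 after that scaling, and Fabp5 and Dgat1 changed sign with it (-0.0089 and -0.14).

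SHP099 against WT asks how inhibition of SHP2 before the exposure bears on the same genes in wild-type cells. Lpl fell and Pnpla2 rose. The mean of Lpl was 32.2 FPKM ± 7.63 in SHP099 and 102 FPKM ± 40.5 in WT (SD, n = 3), a log2 fold change of -1.60 (SE 0.281, adjusted p = 0.0258, lower in 3 of 3 libraries). The mean of Pnpla2 was 46.1 FPKM ± 4.46 in SHP099 and 30.5 FPKM ± 3.60 in WT (SD, n = 3), a log2 fold change of 0.58 (SE 0.116, adjusted p = 0.0350, higher in 3 of 3 libraries). Dgat2, Plin2 and Pparg were lower and Acsl1 higher in every SHP099 library than in any WT library, without passing the test.

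With 2 of the 10 genes passing, the background was 797 of the 11450 genes tested, or 6.96%. None of the 10 passed the cut-offs of the study, which 19 genes or 0.166% met, and voom on the recovered reads gave 2 of 10. At an unadjusted p under 0.05, 6 of the 10 genes were counted, 2 higher and 4 lower, beside 26.7% of all genes tested. The groups did not overlap for 6 of the 10 genes, beside 3964 genes or 34.6% of all.

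Both calls depended on the setting. The adjusted p of Lpl was 0.0980, 0.106 and 0.0805 without SHP099 replicate 1, 2 and 3, and 0.0574 with a replicate block, and that of Pnpla2 was 0.185 after median-of-ratios scaling and between 0.0800 and 0.141 in each of the fits without 1 library other than that without WT replicate 3 (0.0164).

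The genes that did not pass were spread to both sides. Dgat2 stood at -0.89 on the log2 scale (SE 0.222, adjusted p = 0.0571) and Plin2 at -0.53 (SE 0.135, adjusted p = 0.0612), both close to the threshold by limma. Pparg had -0.81 (SE 0.293, adjusted p = 0.136), and Acsl1 had 0.90 (SE 0.390, adjusted p = 0.194), each with no overlap between the groups. The carriers went opposite ways, with 0.48 for Fabp4 (adjusted p = 0.127) and -0.26 for Fabp5 (adjusted p = 0.207), and the groups overlapped for both. Cpt1a had 0.24 (adjusted p = 0.355) and Dgat1 had 0.073 (adjusted p = 0.639), the latter turning to -0.073 after median-of-ratios scaling. The median of the 10 genes was -0.095, with 5 above 0 and 5 below. After median-of-ratios scaling it was -0.24, with 4 above 0 and 6 below. In this comparison too the whole scale leaned upward, with a median of 0.13 over the genes tested and -0.0051 after median-of-ratios scaling. Without WT replicate 3 the median over the genes tested was 0.061.

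**Figure D3:**
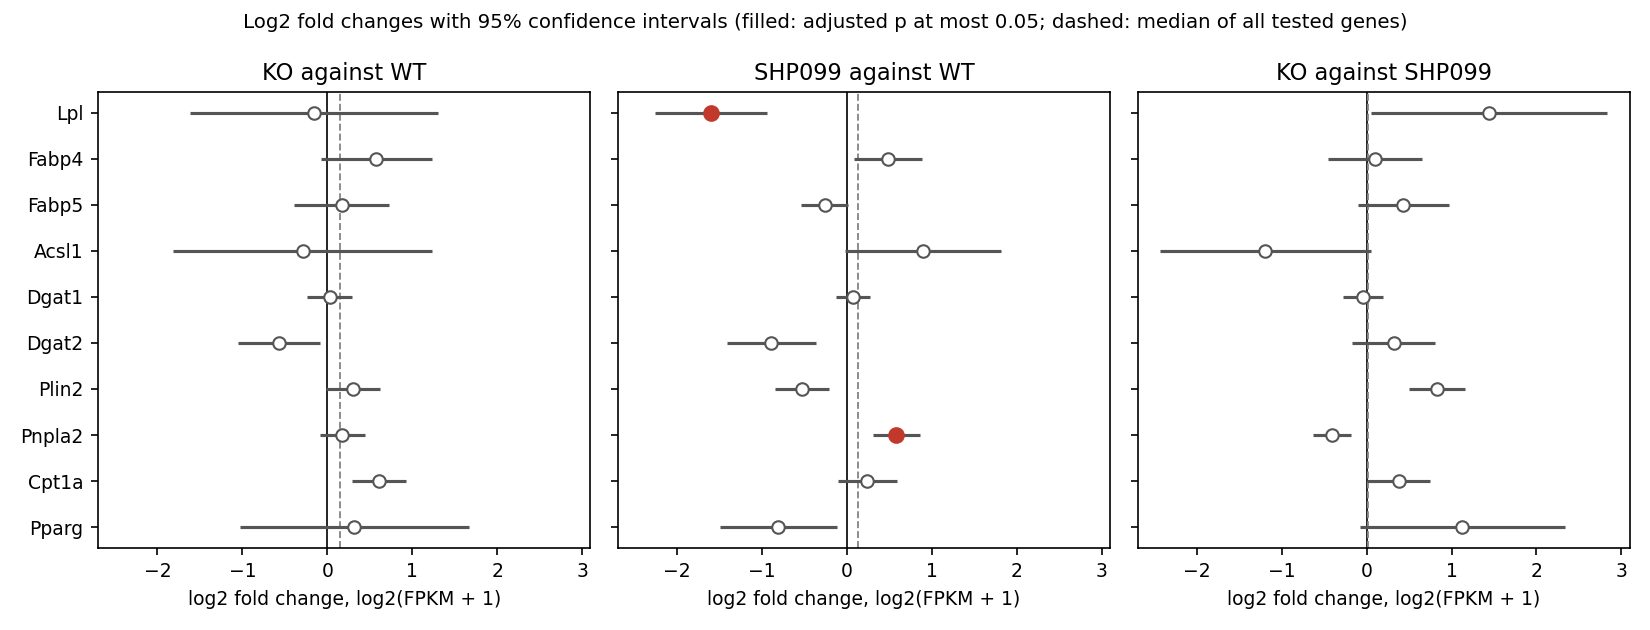
Log2 fold change of each gene (points, horizontal axes) with its 95% confidence interval (lines) in KO against WT, SHP099 against WT and KO against SHP099, where filled points passed the test (adjusted p of 0.05 or less) and a dashed line marks the median of all genes tested. Lpl (-1.60) and Pnpla2 (0.58) in SHP099 against WT are the filled points, and the intervals of Lpl, Acsl1 and Pparg are widest in the comparisons that hold KO.

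KO against SHP099 asks whether loss of the gene and inhibition of the enzyme differ. This comparison does not use WT. Plin2 and Cpt1a were higher and Pnpla2 lower in every KO library than in any SHP099 library, and the other 7 genes overlapped. The mean of Plin2 was 445 FPKM ± 56.3 in KO and 252 FPKM ± 36.6 in SHP099 (SD, n = 3), and that of Pnpla2 was 34.5 FPKM ± 1.45 in KO and 46.1 FPKM ± 4.46 in SHP099 (SD, n = 3). By limma 0 of the 10 genes passed an adjusted p of 0.05, voom gave 0 as well, and 4 had an unadjusted p under 0.05, beside 12.6% of all genes tested.

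Few genes passed in this comparison, 8 of 11450 or 0.0699%, none met the cut-offs of the study (0%), and 2022 genes or 17.7% did not overlap. The log2 fold change of Plin2 was 0.82 (95% confidence interval 0.50 to 1.15, adjusted p = 0.144) by limma. For Pnpla2 it was -0.40 (interval -0.63 to -0.18, adjusted p = 0.266), and for Cpt1a 0.38 (interval 0.0078 to 0.74, adjusted p = 0.394). Lpl had 1.44 (adjusted p = 0.392), Pparg 1.13 (adjusted p = 0.414) and Acsl1 -1.19 (adjusted p = 0.406), with KO replicate 3 inside the range of SHP099 for Lpl, Pparg and Acsl1. Fabp5 had 0.43 (adjusted p = 0.467), Dgat2 0.32 (adjusted p = 0.545), Fabp4 0.095 (adjusted p = 0.882) and Dgat1 -0.044 (adjusted p = 0.868). The median of the 10 genes was 0.35 beside 0.017 over all genes tested.

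This count rested on 1 library. Without KO replicate 3, 6 of the 10 genes passed, beside 2277 genes or 19.9% of all tested. Lpl stood at 2.16 on the log2 scale (adjusted p = 0.00245), Pparg 1.75 (adjusted p = 0.00240), Fabp5 0.69 (adjusted p = 0.0101) and Plin2 0.72 (adjusted p = 0.0125), all higher in both remaining KO libraries. Acsl1 had -1.84 (adjusted p = 0.00200) and Pnpla2 -0.41 (adjusted p = 0.0346), both lower in the remaining KO libraries. Over the 6 fits that each left out 1 library, the count of genes that passed ranged from 0 to 6.

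The libraries richest in fibroblast and mesothelial markers were also left out together, 1 from each group, a choice made after the data had been seen. The KO library among them was KO replicate 3, so in KO against SHP099 this is no separate result from the fit without that library. Of the 10 genes 5 then passed in KO against SHP099, Lpl (1.97), Pparg (1.76), Plin2 (0.82), Fabp5 (0.64) and Acsl1 (-1.94, all log2 fold changes), beside 2054 genes or 17.9% of all tested. In SHP099 against WT none of the 10 passed with these libraries left out, beside 50 genes or 0.437% of all tested, where the log2 fold change of Lpl was -1.55 (adjusted p = 0.0891) and that of Pnpla2 0.48 (adjusted p = 0.261).

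The remaining genes of the pathway were described by 11 lists of 125 genes in all, of which 88 were tested. In KO against WT, 81 of the 88 (92.0%) had a log2 fold change above 0, beside 77.4% of all genes, with a median of 0.20 beside 0.15 over all genes tested. By limma 0 of them passed an adjusted p of 0.05, and 12 had an unadjusted p under 0.05, which is 13.6% beside 10.5% of all genes. After median-of-ratios scaling 53 of the 88 were above 0, which is 60.2% beside 47.3% of all genes, with a median of 0.031 beside -0.012. The lists with the highest medians were those of fatty acid synthesis (0.47, 12 of 12 genes tested above 0) and of peroxisomal oxidation (0.36, 7 of 7), which had 0.33 and 0.19 after that scaling. In most tested genes of the synthesis list WT replicate 3 was the lowest of the 9 libraries, so its median depends on that library. No median of that list without WT replicate 3 is given. All 20 genes tested of mitochondrial oxidation, the path that Cpt1a opens, were above 0 with a median of 0.22, and 15 of the 20 remained so after median-of-ratios scaling.

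Around Lpl, the uptake list had a median of -0.41 in SHP099 against WT, with 3 genes above 0 and 4 below. Cd36, a surface carrier of fatty acids, fell from a mean of 250.0 to 142 FPKM (log2 fold change -0.79, adjusted p = 0.0454, lower in 3 of 3 libraries). Lipa, the lysosomal acid lipase, rose from 160.3 to 277 FPKM (0.81, adjusted p = 0.0406, higher in 3 of 3 libraries). In KO against WT the value of Lipa was 0.79 (adjusted p = 0.398), with every KO library above every WT library. Lrp1, an endocytic receptor and the most abundant gene of the list at 642 FPKM, had -0.41 in SHP099 against WT (adjusted p = 0.152).

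Around Pnpla2 and Plin2, the lipolysis list had a median of 0.40 in SHP099 against WT, with 4 of 5 genes tested above 0. Abhd5, which activates the lipase made from Pnpla2 and was the most abundant gene of its list, rose from 30.8 to 42.0 FPKM (log2 fold change 0.44, adjusted p = 0.0323, higher in 3 of 3 libraries). Pnpla8, a phospholipase, rose from 14.0 to 19.5 FPKM (0.45, adjusted p = 0.0324, higher in 3 of 3 libraries). In the droplet list, with a median of 0.16, Hilpda fell from 136 to 65.3 FPKM (-1.05, adjusted p = 0.0151, lower in 3 of 3 libraries). Hilpda encodes a droplet protein that inhibits the same lipase, and it was the most abundant gene of that list.

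Around Cpt1a, the mitochondrial oxidation list had a median of 0.15 in SHP099 against WT with 14 of 20 genes above 0, and 11 of 20 after median-of-ratios scaling. Eci2, an enoyl-CoA isomerase, rose from 11.7 to 19.4 FPKM (log2 fold change 0.70, adjusted p = 0.0246, higher in 3 of 3 libraries). Etfa, which passes electrons from oxidation to the respiratory chain and led the list at 117 FPKM, had 0.34 (adjusted p = 0.0656). In the peroxisome list all 7 genes tested were above 0, also after both other scalings, with a median of 0.40. Acox3, a peroxisomal acyl-CoA oxidase, rose from 15.8 to 36.2 FPKM (1.15, adjusted p = 0.0116, higher in 3 of 3 libraries), and Hsd17b4, the most abundant of the list, had 0.38 (adjusted p = 0.0716).

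Around Pparg, the list of partners had a median of 0.25 in SHP099 against WT, with 5 of 8 genes above 0. Rxrb, a retinoid X receptor that pairs with PPAR proteins, rose from 25.2 to 35.8 FPKM (log2 fold change 0.49, adjusted p = 0.0245, higher in 3 of 3 libraries). Cebpb, a transcription factor and the most abundant gene of the list at 339 FPKM, had -0.61 (adjusted p = 0.0567). The list of PPAR targets had a median of -0.0060, with 3 of 7 genes above 0 and Cd36 as the gene that passed and the most abundant at 223 FPKM. After median-of-ratios scaling the median of this list was -0.14, with 1 of 7 above 0. After quantile normalization it was -0.078, with 2 of 7 above 0.

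The lists around the carriers, activation and the making of triglyceride held no gene that passed by limma in SHP099 against WT. Their medians were -0.011 for carriers, 0.19 for activation and 0.15 for esterification, and that of fatty acid synthesis was 0.37. After median-of-ratios scaling they were -0.15, 0.056, 0.021 and 0.26 in the same order. For the lists above the scaled medians were -0.56 for uptake, 0.25 for lipolysis and 0.043 for the droplet list. They were 0.0093 for mitochondrial oxidation, 0.25 for the peroxisome list and 0.10 for PPAR partners. The low level of WT replicate 3 in the synthesis list bears on its median here also. The most abundant genes had log2 fold changes of 0.42 for Fabp3 (adjusted p = 0.143), 0.28 for Acsl5 (adjusted p = 0.168), -0.13 for Agpat4 (adjusted p = 0.343) and 0.015 for Elovl1 (adjusted p = 0.935). At an unadjusted p under 0.05 there was 1 of 4 genes tested for carriers, 5 of 7 for activation, 2 of 10 for esterification and 3 of 12 for synthesis, beside 26.7% of all genes tested.

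Over the 88 genes of the lists, 6 rose and 2 fell in SHP099 against WT, which is 9.09% beside 6.96% of all genes, and 39 had an unadjusted p under 0.05, which is 44.3% beside 26.7%. After median-of-ratios scaling 2 rose and 3 fell (5.68% beside 4.46% of all genes), and after quantile normalization 5 rose and 3 fell (9.09% beside 6.11%). Without the libraries richest in fibroblast markers 0 passed, beside 0.437% of all genes. Of the 88, 64 (72.7%) had a log2 fold change above 0, beside 71.2% of all genes, and the median was 0.18 beside 0.13 over all genes tested. In KO against SHP099, 49 of the 88 were above 0 with a median of 0.026 beside 0.017 over all genes, 0 passed by limma and 20 had an unadjusted p under 0.05, which is 22.7% beside 12.6% of all genes. Without KO replicate 3, 20 of the 88 were higher and 9 lower in KO past the threshold, which is 33.0% beside 19.9% of all genes. The lowest adjusted p among the list genes named was that of Cd36, with 0.96 on the log2 scale (adjusted p = 0.0555, higher in 3 of 3 libraries of KO), and it was 0.99 (adjusted p = 0.00353) without KO replicate 3. With all libraries Cd36 passed after median-of-ratios scaling (adjusted p = 0.0455), with a filter at a mean of 5 FPKM (0.0471) and by voom (0.0479), and it missed the threshold in the other settings with all libraries (0.0522 to 0.206). Each of the 8 list genes that passed in SHP099 against WT missed the threshold in some of the fits that left out 1 library, Acox3 in that without SHP099 replicate 2 (adjusted p = 0.0588), and Hilpda in those without SHP099 replicate 2 (0.0855) and 3 (0.0615). Eci2 passed in 2 of the 6 fits, and Abhd5, Cd36, Lipa, Pnpla8 and Rxrb in 1 each, with adjusted p values up to 0.175. Over all 17 settings the adjusted p reached 0.297 for Abhd5, 0.241 for Pnpla8, 0.220 for Rxrb, 0.192 for Lipa, 0.173 for Cd36, 0.132 for Eci2, 0.0973 for Hilpda and 0.0730 for Acox3.

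**Figure D4:**
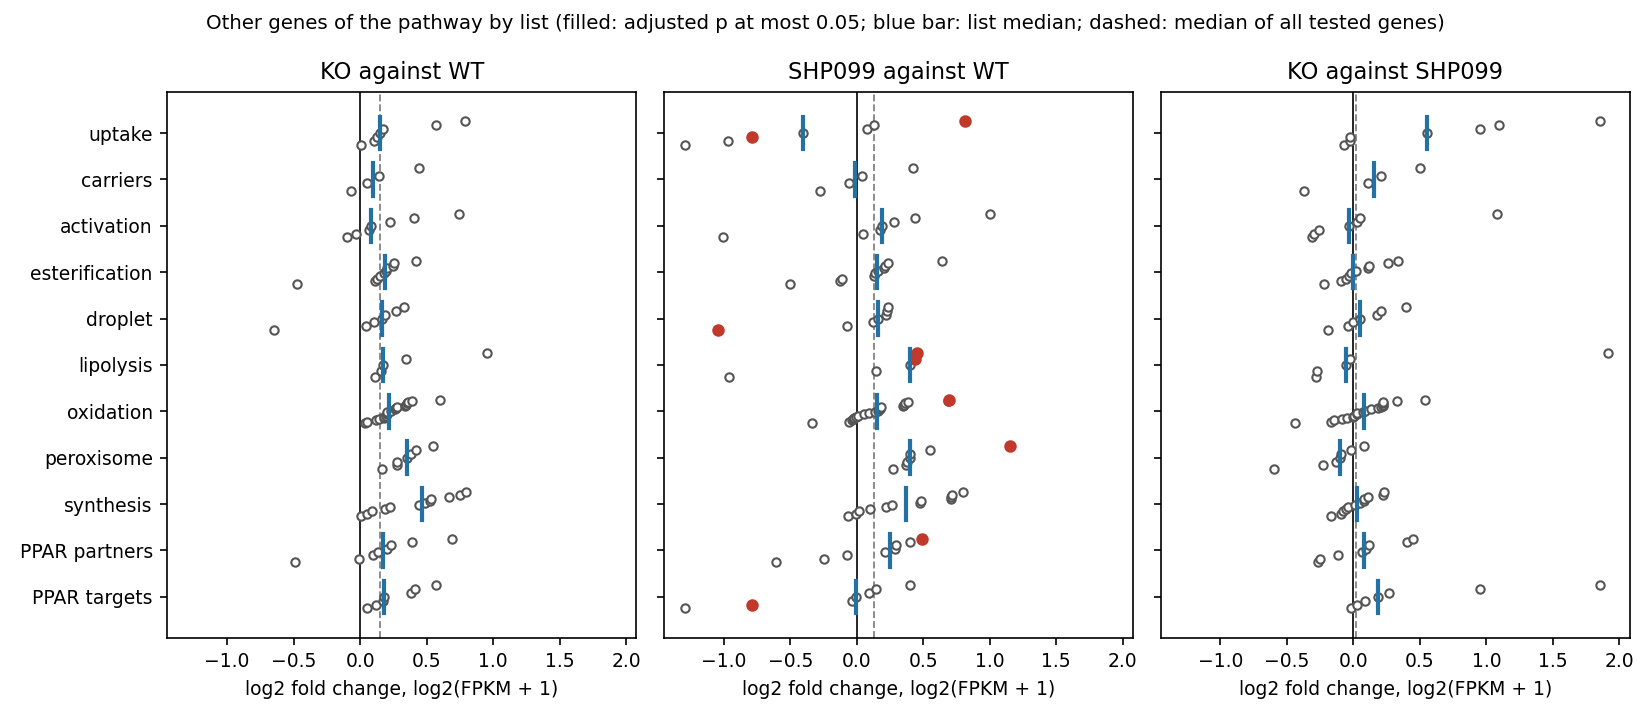
Log2 fold change (horizontal axes) of every tested gene of the 11 pathway lists (vertical axis) in each comparison, where filled points passed the test (adjusted p of 0.05 or less), blue bars are list medians and the dashed line is the median of all genes tested. In SHP099 against WT the uptake median lies at -0.41 and that of the peroxisome list at 0.40, and no point is filled in KO against WT or KO against SHP099.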

How the data were processed

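The authors deposited FPKM values for 9 libraries of peritoneal macrophages. By the submitters' processing notes, bases were called with CASAVA 1.8, reads aligned with HISAT2 2.0.4 and counted with HTSeq 0.9.1. The strand setting, the annotation, the genome build and the tool for FPKM are not given in the sources used here. Genes were matched to GENCODE M21 (GRCm38) by Ensembl identifier, and of 5235 genes in the deposited table of gene spans 91.8% had the span of that annotation, a check of the build. That table also lists spans extended by the authors' assembly for 5 of the 10 genes, Cpt1a, Dgat1, Plin2, Pnpla2 and Pparg.

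Reads were recovered by finding the depth at which FPKM times the mean transcript length of the gene gives whole numbers, which held within 0.05 reads for 96.3% to 96.7% of the genes with at most 50 reads.

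Log2(FPKM + 1) was fitted with limma 3.58.1 in R 4.3.3 (lmFit, eBayes with trend) for each of 3 comparisons of 3 libraries against 3, over the 11450 genes whose mean FPKM reached 1, with Benjamini-Hochberg adjustment over all of them. Genes passed where the adjusted p was 0.05 or lower, and were also counted at the cut-offs of the study (0.005 and an absolute log2 fold change of 1). The count test of the study was not used, since the values are FPKM. The pseudocount of 1 understates the changes of genes of low level. An exact permutation test of 3 against 3 cannot go below 0.1 and was not used. No source says that the libraries of a group come from separate animals, so p-values measure only the spread between samples. WT serves in 2 of the comparisons.

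Named were the 10 genes, Ptpn11, each pathway list gene that passed in any comparison, the most abundant gene of each pathway and marker list, and markers at 0. Csf1r and Kdr, markers that passed, and Cd68, Cd14, Itgam, Fcgr1 and Mertk were named after their values were seen. So were the other endothelial and neutrophil markers, and the genes that share sequence with Fabp5 and Acsl1. The pathway lists were uptake, carriers, activation, esterification, droplet, lipolysis, oxidation, peroxisome, synthesis, PPAR partners and PPAR targets, and the marker lists are those in the text, while 1 further marker list is not reported. The 10 genes and the lists were chosen with earlier results of these data known.

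Alternatives were other pseudocounts, filters, scalings and variance models, a fit of all 9 libraries, voom, a replicate block and leaving out each library. The fits without the libraries richest in fibroblast markers and the length of the principal transcript were added after seeing the data. The code was tested on simulated data. Tables, sequence matches and figures were made in Python 3.11.15 with numpy 2.4.6, pandas 2.3.3 and matplotlib 3.10.9.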

Additional observations from a re-analysis of the deposited data

Results flagged for a closer look

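Of 26 genes examined, the 10 genes and those named from the pathway lists, 3 had every KO library above the WT mean and every SHP099 library below it. By limma in KO against SHP099, none of the 3 passed an adjusted p of 0.05 in the main fit. With all libraries Cd36 passed in some other settings, given above. Without KO replicate 3 the log2 fold changes were 0.72 for Plin2, 0.99 for Cd36 and 0.39 for Agpat4, and all 3 passed, as did 19.9% of all genes tested. Counted in either direction, 232 of all 11450 genes tested, or 2.03%, showed such a split. Some of the 26 genes were named because they passed in SHP099 against WT, which uses the same libraries as the split. The count of 3 among 26 therefore cannot be compared with that share.

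Plin2 differed by 0.82 on the log2 scale (adjusted p = 0.144), with the library values given above. Cd36 differed by 0.96 (adjusted p = 0.0555), with 319, 233 and 198 FPKM in WT, 265, 299 and 264 in KO, and 156, 146 and 126 in SHP099. Agpat4, an acyltransferase on the way to triglyceride and phospholipids, differed by 0.33 (adjusted p = 0.248), with 106, 96.7 and 93.1 FPKM in WT, 119.6, 117 and 105 in KO, and 88.8, 90.2 and 91.4 in SHP099. The 3 genes were picked on the same libraries, so the direction is fixed and the fold changes and p values, with and without KO replicate 3, describe the genes and are no separate test of the split.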

How the results depend on the processing

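Of the 30 log2 fold changes of the 10 genes, 22 kept their direction in every setting run and 8 reversed in at least 1. No reversed value passed the test, and the cause was not tested.

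In KO against WT, 0 of the 10 genes passed in any setting. Dgat1 turned to -0.14 after median-of-ratios scaling and -0.079 after quantile normalization, and Fabp5 turned to -0.0089 after median-of-ratios scaling. Lpl turned to 0.42 without the libraries richest in fibroblast markers. Leaving out 1 library gave -0.59 to 0.57 for Lpl, -0.017 to 0.43 for Fabp5, -0.94 to 0.11 for Acsl1, -0.050 to 0.085 for Dgat1 and -0.067 to 0.94 for Pparg. Ptpn11 kept a negative value in every setting (-1.36 to -1.04), and its call was lost with a replicate block (adjusted p = 0.157) and without the libraries richest in fibroblast markers (adjusted p = 0.157).

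In SHP099 against WT, the count of 2 became 0 at the cut-offs of the study, 0 without a filter on low FPKM, 1 (Lpl) after median-of-ratios scaling, 1 (Lpl) by eBayes without the trend, 1 (Pnpla2) with a replicate block and 0 without the libraries richest in fibroblast markers. Leaving out 1 library gave counts from 0 to 2. Lpl passed in 10 of 17 settings (adjusted p 0.0216 to 0.112) and Pnpla2 in 7 of 17 (0.0164 to 0.261). Dgat2 passed after quantile normalization (-1.03, adjusted p = 0.0482) and in the fit of all 9 libraries (-0.89, adjusted p = 0.0445), within a range of 0.0445 to 0.320 over its settings. Dgat1 turned to -0.073 after median-of-ratios scaling and -0.020 after quantile normalization.

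In KO against SHP099, the count of 0 became 5 without the libraries richest in fibroblast markers, KO replicate 3 among them. The count ranged from 0 to 6 when 1 library was left out, and it was 0 with a replicate block. Leaving out 1 library gave -0.10 to 0.37 for Fabp4 and -0.12 to 0.013 for Dgat1.

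Over all genes, 797 passed in SHP099 against WT, of which 65.4% rose. Median-of-ratios scaling gave 511 with 33.7% rising, quantile normalization 700 with 49.1%, no filter 74, the replicate block 591, the fits without 1 library 47 to 1273, and that without the libraries richest in fibroblast markers 50. The settings gave 1 to 12 genes in KO against WT and 0 to 2277 in KO against SHP099.

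Whether libraries of the same number were paired cannot be told from 3 libraries per group. After removal of group means, correlations ran from -0.43 to 0.49 for libraries of the same number. For libraries of different numbers they ran from -0.63 to 0.54. A filter at a mean FPKM of 5 left Dgat2 untested. Depth limits Dgat2 most, with 74 reads in its lowest library.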
